A study of Homo sapiens with 2 samples.

Results

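EZH2, PHF19 and RYBP encode subunits of the complexes that place Polycomb histone marks, and KDM6B encodes a demethylase that removes such a mark. The transcripts of these 4 genes were compared between ebastine-treated and vehicle-treated C4-2 cells. C4-2 is an established human prostate cancer line that descends from LNCaP. Ebastine is a histamine H1 receptor antagonist, and the series title names EZH2 as its target in cancer. The 4 genes were chosen by their presence in the authors' deposited table, which holds 1947 genes at a p-value under 0.05 out of 13714 that the q-values imply were tested. The values of the genes in this contrast therefore chose them, and those values are given as a description with no test.

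The ebastine group was 1 library from C4-2 cells in medium with the drug, and the vehicle group was 1 library from C4-2 cells in medium with vehicle. Per the labels, all cells were at passage 10 to 15 in serum-containing medium and had 24 hours to attach before the medium was exchanged. Neither the dose nor the length of exposure is stated in the labels. The series design speaks of 2 cell types, while the labels give 1 cell line under 2 treatments. Polyadenylated RNA was sequenced, and levels are in FPKM, a measure of sequenced fragments scaled by transcript length and library size. With 1 library per group there is no spread between replicates, so every difference below is a difference between libraries without an error. The depth is unknown because the table gives no counts. Of 12 prostate luminal markers 6 were listed, or 50%, beside 14.2% of all genes tested. KLK2, KLK3 and TMPRSS2 were at least 1.2-fold lower with ebastine, and FOLH1, STEAP2 and ACPP at least 1.2-fold higher. Of the listed genes that averaged 1 FPKM or more, 56.6% were lower and 42.6% higher at that limit. KLK3, the prostate-specific antigen gene, stood at 1599 FPKM with ebastine and 2476 FPKM with vehicle, and FOLH1, the prostate-specific membrane antigen gene, at 840 FPKM with ebastine and 495 FPKM with vehicle; both were chosen after their values were seen. None of 3 basal, 5 fibroblast or endothelial and 3 leukocyte markers was listed. Because the table holds only genes under the p-value limit, this does not show whether those markers were expressed.

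Polycomb proteins keep developmental genes silent through 2 kinds of complex. Polycomb repressive complex 2 (PRC2) methylates lysine 27 of histone H3, with EZH2 as its usual catalytic subunit in dividing cells. PRC1 places ubiquitin on histone H2A, and the demethylases KDM6A and KDM6B remove the methyl groups that PRC2 adds. EZH2 is known as a gene of advanced prostate cancer, and its transcription depends on E2F factors and so follows proliferation.

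EZH2 transcripts were lower in the ebastine library, by about the typical amount for genes in the table. EZH2, the methyltransferase itself, stood at 18.4 FPKM with ebastine and 26.2 FPKM with vehicle. The difference of -7.75 FPKM was -29.6% of the vehicle level. On the scale of log2((FPKM with ebastine + 1)/(FPKM with vehicle + 1)), which understates the change of low genes, the ratio of EZH2 was -0.48, a 1.40-fold difference. Among the 1768 genes in the table whose mean over the libraries reached 1 FPKM, 57.9% had a smaller absolute ratio and 26.9% had a lower ratio. The authors' deposited table gives EZH2 a p-value of 0.00135 and a q-value of 0.0278, from a test of 1 library against 1. Of the listed genes there, 41.0% have a q-value under 0.05, and 25.4% have one and are lower with ebastine. EZH2 is the only one of the 4 genes with a q-value under 0.05. The reported EZH2 locus is chromosome 7, 148504464 to 148581441 (hg19), a span of 77.0 kb. The RNA came from whole cultures, in which fewer cells that express EZH2 and less EZH2 RNA per cell cannot be told apart. In GENCODE 29, 2 small RNA genes lie within EZH2 on the opposite strand, and a pseudogene, EZH2P1, lies on chromosome 21. Whether the counting used strand or shared reads between copies is not stated.

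PHF19, an accessory PRC2 subunit whose Tudor domain binds a methyl mark of transcribed genes, had the lowest level of the 4 in both libraries. PHF19 stood at 6.06 FPKM with ebastine and 9.44 FPKM with vehicle, a log2 ratio of -0.56 or 1.48-fold. This was the largest ratio of the 4 in size, although with a pseudocount of 5 FPKM EZH2 exceeded it (-0.41 against -0.39) and under 2 other scalings KDM6B did. Without the pseudocount, the fold in the authors' deposited table is 1.56. The authors' deposited table gives PHF19 a p-value of 0.00655 and a q-value of 0.0906. Its reported locus is chromosome 9, 123617931 to 123639606, a span of 21.7 kb.

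RYBP, a subunit of variant PRC1 complexes that stimulates ubiquitylation of histone H2A, was lower by a smaller amount. RYBP stood at 13.3 FPKM with ebastine and 17.0 FPKM with vehicle, a log2 ratio of -0.34 or 1.26-fold. The median log2 ratio of the 1768 listed genes was -0.32, so by signed ratio RYBP lay almost at the middle of the table. In size its ratio was among the smaller ones, since 17.5% of the 1768 genes had a smaller absolute ratio. The authors' deposited table gives RYBP a p-value of 0.0186 and a q-value of 0.184. Its reported locus is chromosome 3, 72423744 to 72495774.

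KDM6B, the demethylase also called JMJD3, was the only one of the 4 with a higher level in the ebastine library. KDM6B stood at 13.6 FPKM with ebastine and 10.9 FPKM with vehicle, a log2 ratio of 0.29 or 1.23-fold. This ratio was close to the smallest the table can hold, since 5.03% of the 1768 genes had a smaller absolute ratio. In the authors' deposited table its p-value is 0.0466 and its q-value 0.337, and 52 listed genes have a larger p-value before the table ends at 0.0499. Genes just outside that limit have no value here. The reported locus of KDM6B is chromosome 17, 7743235 to 7758118.

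**Figure D1:**
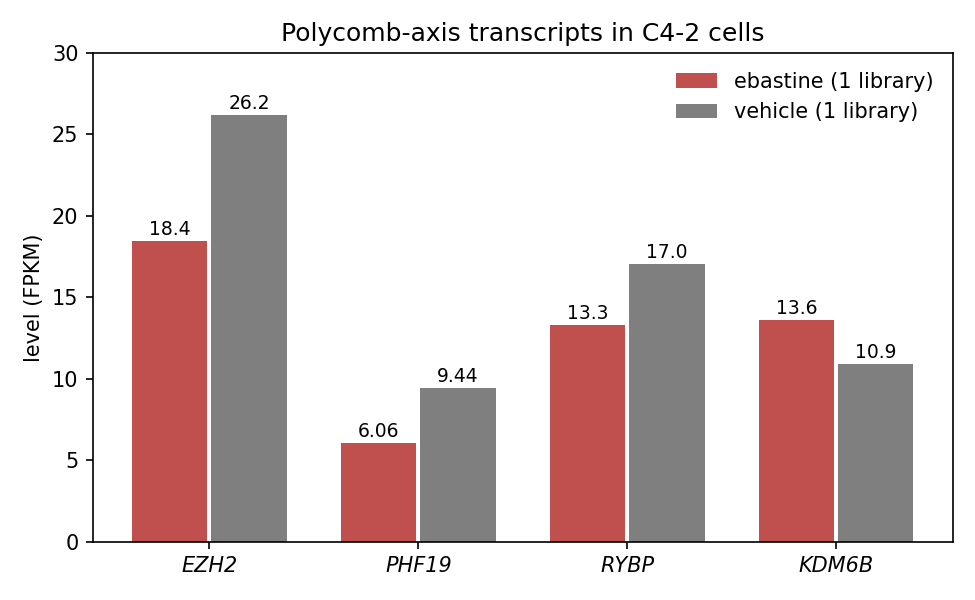
Bars give the FPKM level of each gene in the single ebastine library (red, left) and the single vehicle library (grey, right); there are no error bars because each group has 1 library. EZH2, PHF19 and RYBP are lower with ebastine and KDM6B is higher, at 13.6 against 10.9 FPKM.

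The order of the 4 levels differed between the libraries in its middle. With ebastine the order from high to low was EZH2, KDM6B, RYBP and PHF19, while with vehicle RYBP stood above KDM6B. KDM6B and RYBP were close with ebastine, at 13.6 and 13.3 FPKM, and whether they differ beyond a replicate spread cannot be said. Quotients of levels within a library do not depend on how the libraries were scaled against each other. The quotient of EZH2 over KDM6B, methyltransferase over demethylase, was 1.36 with ebastine and 2.40 with vehicle, a 1.77-fold difference. The quotient of PHF19 over KDM6B was 0.446 with ebastine and 0.866 with vehicle, a 1.94-fold difference. That of RYBP over KDM6B was 0.978 with ebastine and 1.56 with vehicle, a 1.60-fold difference. Since the p-value filter removes small ratios, the quotient of any listed lower gene over any listed higher gene must differ between the libraries. These shifts are therefore no result about methyltransferase and demethylase. The quotient of EZH2 over PHF19 was 3.04 with ebastine and 2.77 with vehicle, only 1.10-fold apart. These quotients compare RNA levels and carry no measure of protein or histone methylation.

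The directions of the 4 genes have to be read against the table as a whole. At a limit of 1.2-fold, 3 of the 4 were lower, where 56.6% of the 1768 listed genes were, and 1 was higher, where 42.6% were. These shares add up to nearly all listed genes, since the p-value filter removes small ratios, so passing the limit is no result about the 4. At a limit of 1.5-fold none of the 4 was lower or higher, where 18.6% of the listed genes were lower and 9.67% higher. This holds with the pseudocount of 1 FPKM, since without it PHF19 was 1.56-fold lower.

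**Figure D2:**
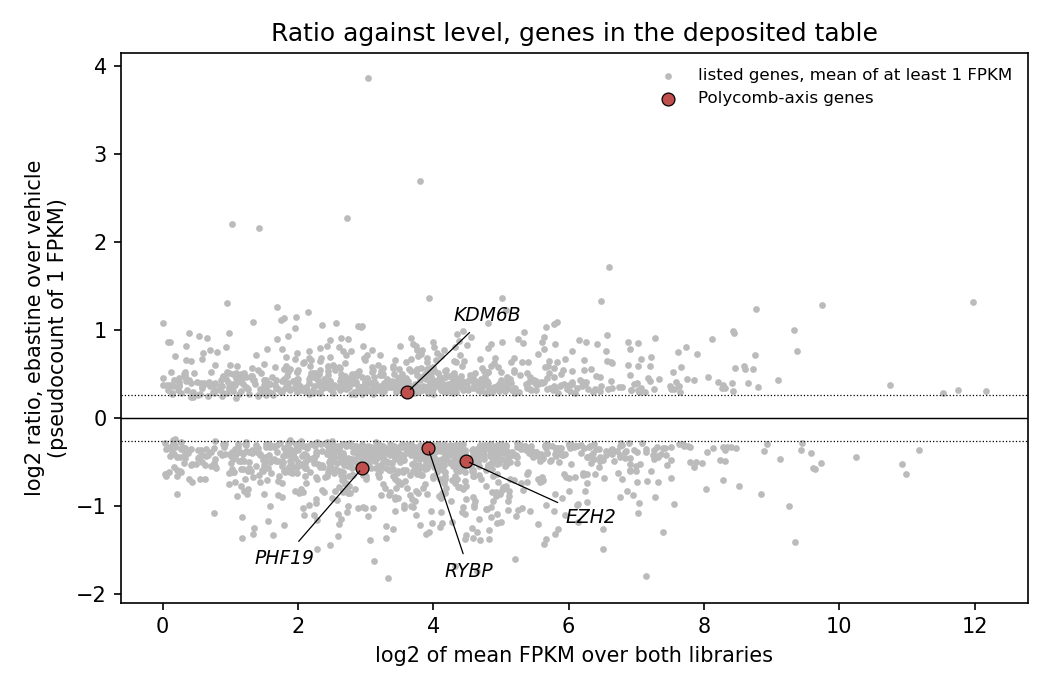
Each grey point is 1 of the 1768 listed genes that averaged 1 FPKM or more, placed by log2 mean FPKM (x) and log2 ratio of ebastine over vehicle (y, pseudocount of 1 FPKM); dotted lines mark 1.2-fold. The empty band around 0 is the authors' p-value filter, and the 4 red points lie inside the clouds beside it, with KDM6B at the edge of the upper one.

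The scaling of the libraries moved all 4 ratios together. Setting the median ratio to 0 over listed genes that averaged 10 FPKM or more (centring) multiplied the ebastine values by 1.27, or 0.35 on the log2 scale. The log2 ratio of EZH2 was then -0.15, that of PHF19 -0.26, that of RYBP -0.0094 and that of KDM6B 0.62. EZH2, PHF19 and RYBP then lay within 1.2-fold of the vehicle level, with RYBP at almost the same level in both libraries. KDM6B was then 1.54-fold higher. Over all listed genes, 361 were then at least 1.2-fold lower and 761 higher, in place of 1001 lower and 754 higher; equal upper quartiles gave 570 lower and 761 higher. The factor comes from the filtered table, in which most genes are lower with ebastine. No gene there that averaged 1 FPKM or more has an absolute log2 ratio under 0.23. The median of such a table falls on a lower gene and cannot mark the level of unchanged genes. Values after centring therefore show the effect of this factor and not which genes were unchanged. Which scaling is nearer to the RNA content of the cells was not tested.

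**Figure D3:**
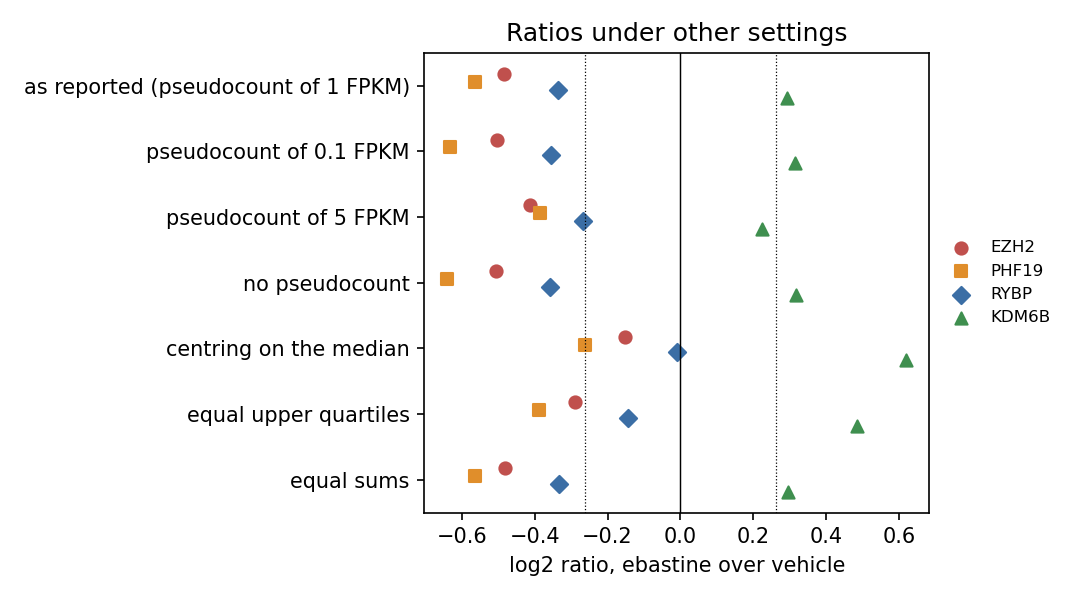
Points give the log2 ratio (x, ebastine over vehicle) of EZH2, PHF19, RYBP and KDM6B under the reported setting and 6 alternatives (rows); dotted lines mark 1.2-fold. No point crosses 0, and centring on the median leaves RYBP at -0.0094 and lifts KDM6B to 0.62.

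The promoters of the 4 genes are shown as a description, with motifs that were chosen when the values were known. Whether the motifs bear on the levels of the genes was not tested. Each line is a 300-base RefSeq window of GRCh38.p14, a different build from that of the deposited loci, with 250 bases before the annotated start and 50 from it, 5′ to 3′ on the strand of the gene. For genes with more than 1 window, the window with the most GENCODE 29 transcript starts was taken. The windows are chr7:148884242-148884541 (minus strand), chr9:120877139-120877438 (minus), chr3:72446574-72446873 (minus) and chr17:7839667-7839966 (plus). Capitals mark matches on either strand to an E2F motif (TTTGGCGC, TTTCGCGC or TTTCCCGC), the CCAAT box (CCAAT) or the cell cycle homology region (TTTGAA); the motifs do not overlap here.
EZH2: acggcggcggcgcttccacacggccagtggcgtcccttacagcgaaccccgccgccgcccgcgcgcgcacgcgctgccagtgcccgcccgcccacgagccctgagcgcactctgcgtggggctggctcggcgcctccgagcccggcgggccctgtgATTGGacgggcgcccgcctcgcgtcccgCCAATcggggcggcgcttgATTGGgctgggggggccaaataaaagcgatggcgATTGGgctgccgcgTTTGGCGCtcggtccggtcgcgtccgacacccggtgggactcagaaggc
PHF19: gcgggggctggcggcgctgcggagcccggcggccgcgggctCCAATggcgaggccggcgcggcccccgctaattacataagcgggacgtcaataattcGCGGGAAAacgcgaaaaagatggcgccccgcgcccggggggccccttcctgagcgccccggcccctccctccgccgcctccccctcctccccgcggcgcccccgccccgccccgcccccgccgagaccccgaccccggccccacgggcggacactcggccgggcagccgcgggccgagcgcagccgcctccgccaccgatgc
RYBP: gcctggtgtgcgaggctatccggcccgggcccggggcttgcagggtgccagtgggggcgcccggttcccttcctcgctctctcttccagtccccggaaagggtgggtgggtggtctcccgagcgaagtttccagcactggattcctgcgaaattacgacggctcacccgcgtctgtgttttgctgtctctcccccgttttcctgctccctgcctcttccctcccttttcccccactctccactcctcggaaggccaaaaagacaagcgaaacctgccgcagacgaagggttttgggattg
KDM6B: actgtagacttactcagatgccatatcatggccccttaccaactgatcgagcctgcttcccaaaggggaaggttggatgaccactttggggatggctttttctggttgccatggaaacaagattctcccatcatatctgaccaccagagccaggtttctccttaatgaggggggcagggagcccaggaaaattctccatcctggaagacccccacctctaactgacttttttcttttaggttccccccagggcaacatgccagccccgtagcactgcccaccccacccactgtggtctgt

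The EZH2 window held 1 E2F match, TTTGGCGC, at bases 2 to 9 counted from the start as 1. It also held 4 CCAAT boxes between 94 and 9 bases before the start, 3 of them on the opposite strand. The PHF19 window held 1 E2F match, TTTCCCGC on the opposite strand, from 152 to 145 bases before the start, and 1 CCAAT box. No match to any of the 3 motifs was found in the RYBP and KDM6B windows. Of all 35116 promoter windows 2.74% held an E2F match, 34.6% a CCAAT box and 15.2% a TTTGAA. The second RefSeq windows of EZH2, PHF19 and KDM6B held no E2F match. The printed windows were 74.7% G and C for EZH2, 79.7% for PHF19, 62.7% for RYBP and 53.0% for KDM6B, where the median of all windows was 58.7%. They held 46, 48, 20 and 2 CG dinucleotides in that order, and the median of all windows was 14. The second windows of EZH2, PHF19 and KDM6B were 77.0%, 76.0% and 69.3% G and C. Those windows held 45, 26 and 24 CG dinucleotides, so the low values of KDM6B belong to its printed window only. A match is a description of the letters and says nothing of binding in these cells.

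Few other genes of the Polycomb lists used here were in the table. Of 52 genes on lists of PRC2, PRC1, the H2A deubiquitinase complex PR-DUB and H3K27 demethylases 5 were listed, or 9.62%, beside 14.2% of all genes tested; how many of the 52 were tested is unknown. The fifth was AUTS2, a subunit of a variant PRC1 that is linked to gene activation, at 2.51 FPKM with ebastine and 1.70 FPKM with vehicle (log2 ratio 0.38). In the authors' deposited table AUTS2 has a q-value of 0.111, and its reported locus spans 1194 kb and can hold other genes. None of 17 core PRC1 genes, such as the ubiquitin ligase RNF2, and none of 10 PR-DUB genes was listed. Of the 6 core PRC2 genes only EZH2 was listed, so SUZ12, EED and the other methyltransferase EZH1 have no value here. The lists do not hold every Polycomb gene. SCML2 and SCML1, Polycomb-group genes outside them that were picked with their values known, had log2 ratios of -0.59 and -0.45. SCML2 stood at 4.46 FPKM with ebastine and 7.22 FPKM with vehicle.

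Genes on lists of other chromatin regulators were in the table at a share near that of all genes, and these were lower with ebastine except for SMARCD3. Of 79 genes on 6 lists of acetyltransferases, methyltransferases, other demethylases, SWI/SNF and DNA methylation 10 were listed, or 12.7%, beside 14.2% of all genes tested. Of the 10, 9 were at least 1.2-fold lower and 1 was higher, where 56.6% of the 1768 listed genes were lower, and their median log2 ratio was -0.44 beside -0.32 over those 1768 genes. KDM3A, a lysine 9 demethylase of histone H3, stood at 12.4 FPKM with ebastine and 18.0 FPKM with vehicle. The DNA methyltransferase DNMT3B stood at 3.77 FPKM with ebastine and 5.52 FPKM with vehicle. In the authors' deposited table these are the only genes of the 10 with a q-value under 0.05. The lysine 9 methyltransferases SUV39H1 and SUV39H2 had log2 ratios of -0.44 each, SMYD2 one of -0.41 and PAXIP1, of the H3K4 methyltransferase complexes, one of -0.34. The value of SUV39H2 can include other genes, since its locus spans 210.0 kb and is shared with another listed gene. Among SWI/SNF remodelling subunits DPF1, PHF10 and ACTL6A had log2 ratios of -0.49, -0.47 and -0.30, and SMARCD3 one of 0.41. Centring left 8 of the 10 below 0, where 902 of the 1768 listed genes were. PAXIP1 was then at -0.021, and ACTL6A lay on the other side of 0 at 0.043. No gene of the H3K27 acetyltransferases EP300 and CREBBP was listed. Chromatin genes that these counts do not cover went both ways, and those named next were picked with their values known. KDM8 and CECR2, at means of 0.90 and 1.34 FPKM, had log2 ratios of 0.57 and 0.65. WHSC1 and SETD8, deposited under older names that were not matched to the lists, had log2 ratios of -0.60 and -0.38.

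The E2F, RB and MuvB genes, among them known regulators of EZH2 transcription, were lower with ebastine where they were listed. Of 19 such genes 7 were listed, or 36.8%, beside 14.2% of all genes tested. All 7 were at least 1.2-fold lower, where 56.6% of the 1768 listed genes were. The 3 other scalings left all 7 below 0. Of the 1768 genes, centring left 902 below 0, and equal upper quartiles and equal sums left 1007 each. Their median log2 ratio was -0.54 as deposited and -0.24 after centring, beside -0.32 and -0.0069 over the 1768 genes. FOXM1, a mitotic transcription factor, stood at 18.95 FPKM with ebastine and 39.2 FPKM with vehicle, though its locus spans 104 kb and can hold other genes. MYBL2, which joins the MuvB complex in S phase, stood at 54.3 FPKM with ebastine and 97.3 FPKM with vehicle. The log2 ratios of the repressor E2F8 and of the MuvB subunit LIN9 were -0.55 and -0.54. The activator E2F1 stood at 29.1 FPKM with ebastine and 37.99 FPKM with vehicle, a log2 ratio of -0.37 that lay at -0.037 after centring; its values were seen before it was chosen. The authors' deposited table gives 5 of the 7 a q-value under 0.05, where 41.0% of its genes have one, and E2F1 is not among them. Of 5 proliferation markers 4 were listed and all 4 were at least 1.2-fold lower, beside the same 14.2% and 56.6%, with MKI67 (chosen after its values were seen) at 11.6 FPKM with ebastine and 22.4 FPKM with vehicle. The part of proliferation in the level of EZH2 was not tested. Of 12 genes whose products modify EZH2 protein, the kinases CDK1 and CDK2 were listed, or 16.7%, beside 14.2% of all genes tested. Their log2 ratios were -0.90 and -0.38, where 56.6% of the 1768 listed genes were at least 1.2-fold lower. After centring CDK2 lay at -0.036.

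**Figure D4:**
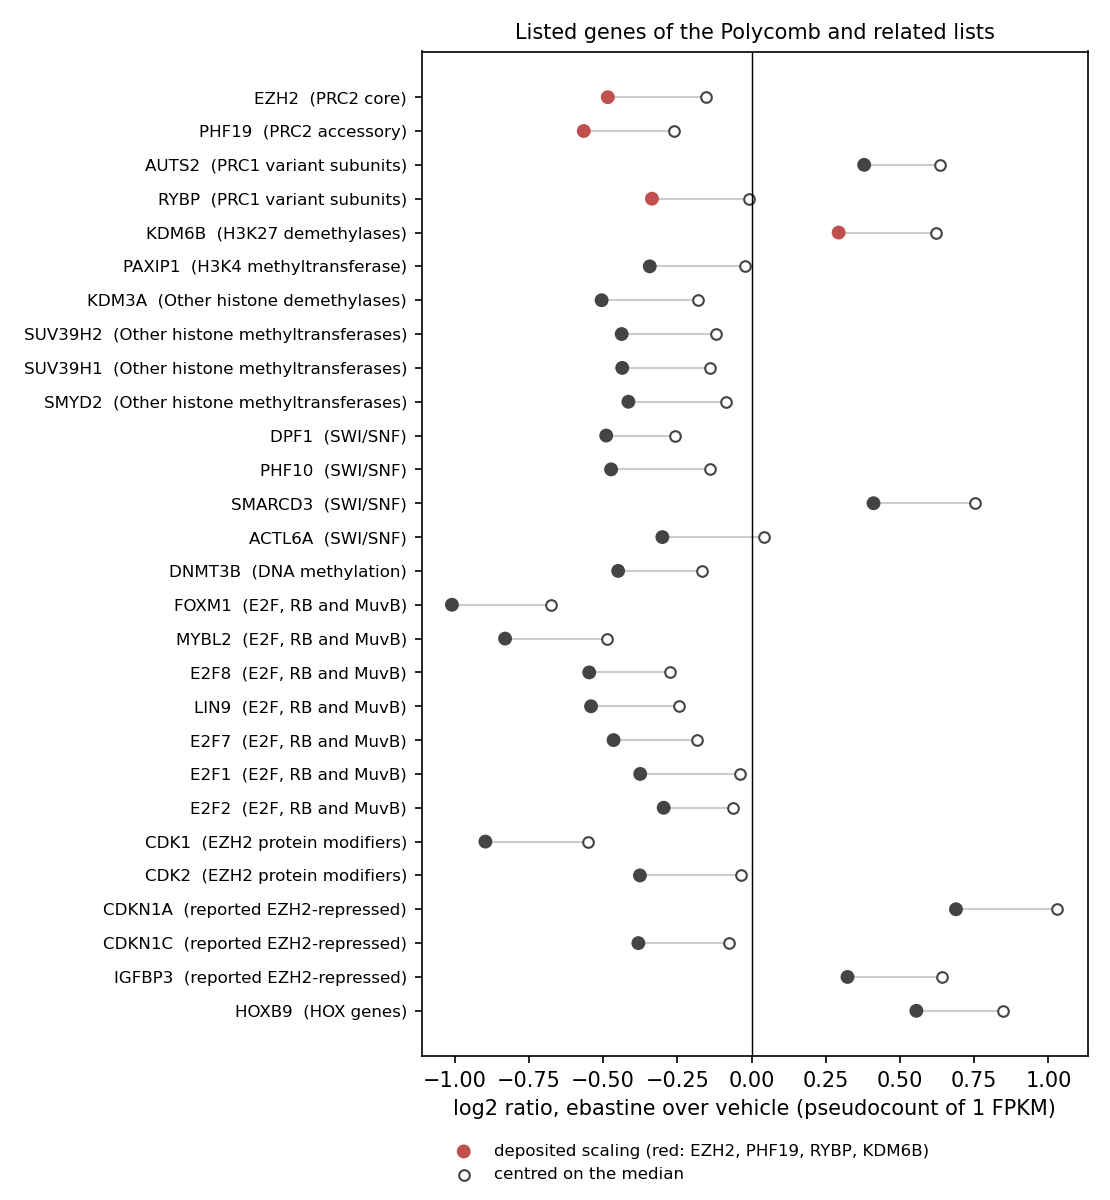
Filled points give the log2 ratio (x, ebastine over vehicle, pseudocount of 1 FPKM) of each listed gene of the Polycomb and related lists (rows, list in brackets), with EZH2, PHF19, RYBP and KDM6B in red; open points give the ratio after centring on the median. The E2F, RB and MuvB genes stay below 0 on both, though after centring E2F1 lies at -0.037 and E2F2 at -0.061. RYBP, ACTL6A, PAXIP1 and CDK2 also reach about 0 after centring.

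Genes that EZH2 is known to silence were listed at about the share of all genes. A list of 22 genes described as targets of EZH2 repression in prostate or other cancers had 3 members in the table, a share of 13.6%, where 14.2% of all tested genes are. CDKN1A, the cyclin-dependent kinase inhibitor p21, stood at 45.5 FPKM with ebastine and 27.8 FPKM with vehicle, and IGFBP3 stood at 9.47 FPKM with ebastine and 7.37 FPKM with vehicle. CDKN1C, another inhibitor of that family, was lower, at 6.52 FPKM with ebastine and 8.79 FPKM with vehicle. Of 39 HOX genes, the classical Polycomb targets, HOXB9 alone was listed, or 2.56%, at 4.57 FPKM with ebastine and 2.79 FPKM with vehicle; it, too, was picked with its values known. How many genes of these lists the authors tested is unknown. In the authors' deposited table CDKN1A and HOXB9 have a q-value under 0.05, and IGFBP3 and CDKN1C do not.

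By level in the 2 libraries, each of the 4 genes had near neighbours of other kinds. Likeness was the distance between genes on the log2(FPKM + 1) scale over these 2 libraries. Nearest to EZH2 were METTL7A (distance 0.031), the clamp loader subunit RFC5 (0.039) and the glucose transporter SLC2A1 (0.073). Nearest to PHF19 were the centriole gene STIL (0.019), NRM and CCDC74A. NRARP, PPP3CB and PHTF2 lay nearest to RYBP, and LAMB2, FRMD8 and PCYOX1 nearest to KDM6B, at distances from 0.025 to 0.045.

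By position, no other listed gene began within 500 kb of EZH2 or of RYBP. Within that distance of PHF19 lay 4 listed genes, CDK5RAP2, C5, CNTRL and STOM, and all 4 were lower with ebastine as PHF19 was. With no minimum level, as here, 1080 of the 1947 listed genes were lower. CNTRL, a centrosome gene, stood at 2.01 FPKM with ebastine and 4.53 FPKM with vehicle. Near KDM6B lay 6, of which 4 were lower and 2 higher. The mitotic kinase gene AURKB, 350 kb away, stood at 21.6 FPKM with ebastine and 39.3 FPKM with vehicle, opposite in direction to KDM6B.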

How the data were processed

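Per the submitters' processing notes, TopHat2, Cuffdiff and the hg19 build were used, with no versions. The FPKM values, the log2 fold changes, the p-values and q-values and a test statistic (a score not used here) were deposited by the authors in 1 table of genes with a p-value of at most 0.0499. The number of genes tested, 13714, was inferred from q-value times rank over p-value. The sources used here do not state gene models, strand, multi-mapped reads or library scaling, and depth is unknown.

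Ratios were computed here from the FPKM values with a pseudocount of 1 FPKM, and gene counts cover the listed genes that averaged 1 FPKM or more, at a limit of 1.2-fold, except that neighbours by position were counted with no minimum. No test was made. Locus starts were read as counted from 0, since locus length then equalled RefSeq gene length for 76 of 1718 genes, against 28 otherwise. Gene names were matched by symbol, but many genes deposited under older names, such as WHSC1 and SETD8, were assigned no current symbol. Those genes were not counted in the lists, except in the marker lists, which also used the deposited name. Listed shares can therefore be too low.

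The 4 genes, the 1.2-fold limit, the 16 gene lists (223 genes) and the motifs were chosen with earlier results of these data known. Genes named were the 4, up to 4 per list by absolute ratio, the 3 nearest in level, and listed genes starting within 500 kb; exceptions are marked. Promoter sequences came from RefSeq (GRCh38.p14), where all 4 genes matched, with 7 windows. Alternatives were other pseudocounts, minimum means, scalings and a 1.5-fold limit. Scripts ran in Python 3.11.15 with pandas 2.3.3 and numpy 2.4.6 and were tested on simulated data.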

Additional observations from a re-analysis of the deposited data

How the results depend on the processing

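The log2 ratios of the 4 genes kept their direction under all 6 alternatives, from -0.51 to -0.15 for EZH2, -0.64 to -0.26 for PHF19, -0.36 to -0.0094 for RYBP and 0.23 to 0.62 for KDM6B. Much of this was fixed in advance, since a pseudocount cannot reverse a direction. The factors on the ebastine values were 1.27 for centring, 1.15 for equal upper quartiles and 1.001 for equal sums, so KDM6B could not reverse. Centring on the median brought EZH2 (-0.15), PHF19 (-0.26) and RYBP (-0.0094) within 1.2-fold, so that 0 of the 4 were counted lower. Equal upper quartiles brought RYBP (-0.14) within it, and a pseudocount of 5 FPKM brought KDM6B (0.23) within it, which left 0 higher. At a limit of 1.5-fold, with the pseudocount of 1 FPKM, 0 of the 4 were lower and 0 higher. Without the pseudocount PHF19 was past that limit, at 1.56-fold lower. Over all listed genes, the 1001 counted lower became 361 after centring, 570 with equal upper quartiles and 328 at 1.5-fold, and the 754 higher became 171 at 1.5-fold. The share of lower genes thus depends on the scaling, and the median of the filtered table cannot mark unchanged genes. These changes follow from the construction of each alternative: a factor on all ebastine values, a larger pseudocount or a stricter limit. No paired analysis was possible because each group has 1 library. No library could be left out, and with the depth unknown no counting error can be given for any level.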
